A study of Mus musculus with 4 samples.

Results

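Integrins, selectins and their binding partners are the receptors by which blood cells hold on to marrow, to vessel walls and to one another. The set described here holds 32 genes: 17 integrin alpha chains, 8 integrin beta chains, and 7 partners (the E-selectin gene Sele, the selectin ligand Selplg, the intercellular adhesion molecules Icam1, Icam2 and Icam4, the hyaluronan receptor Cd44, and Madcam1). They were chosen by gene name as the integrin chains other than Itga2b, the selectins other than Selp, and their ligands, out of 29319 named genes on the array. All 32 were present, on 53 probes: 17 genes had 1 probe and 15 had 2 or 3.

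The 4 samples were sorted from bone marrow of C57BL6/J mice aged 7 weeks, and each was hybridised to 1 Agilent 1-colour array. LSK cells lack lineage markers and carry Sca-1 and c-kit, the fraction of marrow with stem and early progenitor cells, and the second population was sorted as CD45-negative stromal, or niche, cells. The day 0 arrays come from healthy mice. The day 10 arrays come from CD45.1 hosts that were irradiated with 700 cGy and then received 30000 LSK cells of CD45.2 donors, so that radiation and transplantation were always given together. One label gives the stromal gate as CD45.1-negative and others as CD45-negative, which leaves unstated whether donor blood cells were removed from it. The number of mice behind each array is not stated in the labels.

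With 1 array a group there is no replicate, no standard error and no test: every difference is between 2 arrays, and the number of arrays limits the precision. Levels are log2 signals relative to the 75th percentile of the same array, so they compare arrays within a gene and not genes with each other. Spots printed more than once give the only repeat measure, a median SD of 0.0974 to 0.140 log2 units within an array over 50 probes, which covers spot noise alone. A gene is read from its brightest probe, and a difference of at least 2-fold is counted as higher or lower. Where a gene was above background on 1 of the 2 arrays only, the text says "at least" and counts the fold from the higher of the probe's own level on the other array and the detection limit of that array, the dimmest level flagged there as above background. The limit was -3.95 on the LSK day 0 array and -4.12 on the LSK day 10 array. In the CD45-negative sort it was -3.15 at day 0 and -4.24 at day 10. The CD45-negative day 0 array had the smallest share of probes above background, 47.6% against 52.0% to 56.6% on the others.

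The cell labels were compared with marker genes first. All 12 stem and progenitor markers were above background in LSK cells at both days, and 5 and 10 of 12 in CD45-negative cells at day 0 and day 10. In the CD45-negative sort, Ptprc, the gene of CD45 itself, was above background at both days, at 3.10 and 5.58, against 4.18 and 4.25 in LSK cells. Of 14 reticular and osteoblast markers, 12 were above background in this sort at day 0 and 9 at day 10; Kitl and Sp7 were not at either day, and Lepr and Pdgfra were not at day 10. All 12 neutrophil markers and at least 10 of 11 B cell markers were above background there at both days, and likewise in LSK cells. In bulk samples such as these, fewer cells of a type and less RNA per cell cannot be told apart.

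An integrin is a pair of an alpha and a beta chain, and the pair decides what is bound. The beta-2 chain with its alpha partners forms the leukocyte integrins, which bind the intercellular adhesion molecules; alpha-4 with beta-1 or beta-7 binds VCAM-1 and MAdCAM-1; other beta-1 and alpha-V pairs bind fibronectin, collagens and laminins. Selectins catch flowing cells by sugars carried on proteins such as PSGL-1, the product of Selplg, and stem cells lodge in marrow after transplantation by way of selectin ligands, VLA-4 and CD44.

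The sequences of 5 probes and 3 promoters show what the array read and what precedes 3 genes that differed between the days in CD45-negative cells. The probes are 60-mers as the deposited spot files hold them. The Icam4 and Itgax probes are those of the 2 largest differences between days in CD45-negative cells. The Itga2 and Itgae probes hold, in capitals, the letters GGNTTNTT of the conserved stretch just inside the membrane that alpha chains share; 2 of 30 alpha chain probes hold it, none of the other probes of the set, and 1.88% of all 40628 gene probes. The Cd44 probe is shown because it matches 2 of the 3 RefSeq transcripts of Cd44 that the other Cd44 probes match, so it reads a part that not every form carries.
Icam4: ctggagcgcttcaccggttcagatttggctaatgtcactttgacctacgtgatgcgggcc
Itgax: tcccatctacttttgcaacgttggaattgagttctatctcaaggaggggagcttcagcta
Itga2: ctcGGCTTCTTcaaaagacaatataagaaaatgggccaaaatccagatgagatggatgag
Itgae: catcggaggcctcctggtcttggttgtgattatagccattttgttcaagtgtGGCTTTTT
Cd44: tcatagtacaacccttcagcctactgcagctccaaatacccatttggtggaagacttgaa

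The promoters are the 250 bases before the start site, 5′ to 3′ along the gene, from RefSeq on GRCm38.p6. The Icam4 promoter (chr9:21029182-21029431, + strand) is shown for the GATA motif AGATAA, which lies on its opposite strand 43 bases before the start and is in capitals as TTATCT. The Itgam promoter (chr7:128062390-128062639, + strand) holds the ETS and PU.1 motif AGGAAG 83 bases before the start. In the Itgb7 promoter (chr15:102231936-102232185, - strand) the same motif lies on the opposite strand, in capitals as CTTCCT, 141 bases before the start.
Icam4 promoter: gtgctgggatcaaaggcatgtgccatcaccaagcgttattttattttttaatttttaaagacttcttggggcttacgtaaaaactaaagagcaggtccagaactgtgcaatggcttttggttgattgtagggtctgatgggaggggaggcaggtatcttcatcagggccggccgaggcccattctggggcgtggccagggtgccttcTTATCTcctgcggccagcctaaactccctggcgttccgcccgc
Itgam promoter: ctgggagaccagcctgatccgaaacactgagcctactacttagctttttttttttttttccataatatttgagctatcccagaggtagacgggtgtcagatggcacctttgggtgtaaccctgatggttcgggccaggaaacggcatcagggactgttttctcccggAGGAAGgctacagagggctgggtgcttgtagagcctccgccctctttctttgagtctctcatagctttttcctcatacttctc
Itgb7 promoter: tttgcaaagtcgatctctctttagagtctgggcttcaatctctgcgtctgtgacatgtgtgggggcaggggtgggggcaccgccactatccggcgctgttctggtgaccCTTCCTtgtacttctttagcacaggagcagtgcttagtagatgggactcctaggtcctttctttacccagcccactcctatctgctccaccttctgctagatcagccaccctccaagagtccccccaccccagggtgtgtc

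Both strands of the 250 bases were searched for each motif, and 22 of the 32 genes had a promoter in the table. AGGAAG was found in 11 of these 22 genes (Cd44, Itga1, Itga11, Itga3, Itgam, Itgav, Itgb1, Itgb6, Itgb7, Madcam1 and Sele) and in 32.3% of all 27025 genes with a promoter of that length. The RUNX motif TGTGGT was found in 2 of 22 (Itga3 and Itga4) and in 15.9% of all genes, and AGATAA in 3 of 22 (Cd44, Icam4 and Itgax) and in 11.4%. A match is only these letters in this window, and the presence of a factor there was not measured.

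Of the 32 genes, 18 had a probe above background on all 4 arrays, 9 on 1 to 3 arrays and 5 on none. Those 5 were Itga7, the laminin-binding alpha chain best known from muscle, Itga8, Itgb6, the epithelial partner of alpha-V, Sele, the E-selectin of activated endothelium, and Madcam1, the mucosal vessel ligand of alpha-4 beta-7. By array, 23 genes were above background in LSK cells at day 0 and 22 at day 10, and in CD45-negative cells 21 and then 24. Of all 29319 named genes, 17023 and then 17460 were above background in LSK cells, and 15313 and then 16536 in CD45-negative cells. Of the 23 chain pairs that these genes can form, both chains were above background in 16, 16, 13 and 17 pairs on the same 4 arrays, and 10 pairs were so on every array. No probe of the set was saturated.

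**Figure D1:**
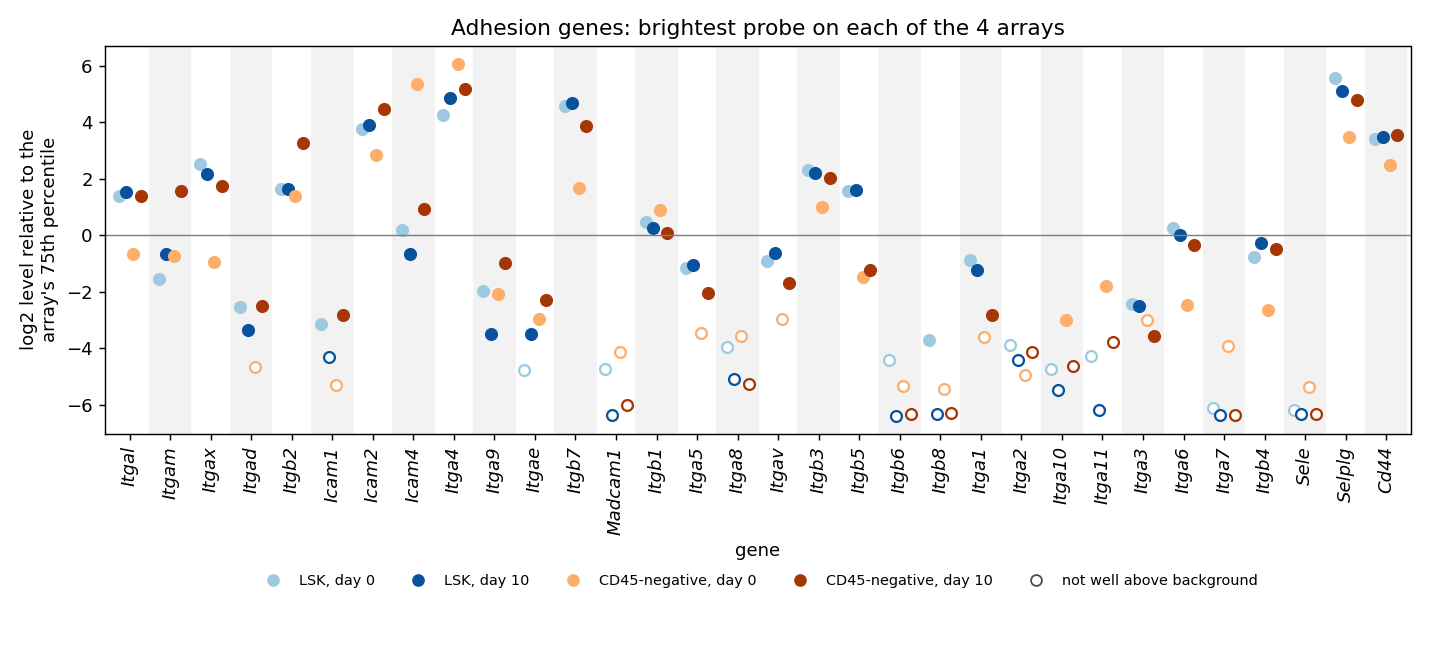
Log2 level of the brightest probe of each of the 32 genes, relative to the 75th percentile of the array, on the 4 arrays (light and dark blue, LSK cells at day 0 and day 10; light and dark orange, CD45-negative cells at day 0 and day 10; open circles, not well above background). Dots are to be compared within a gene: Icam4 stands at 5.34 in CD45-negative cells at day 0 and at 0.93 or less on the other arrays, whereas Itgax stands at -0.96 there and at 1.74 or more on the others.

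In CD45-negative cells, adhesion genes were mostly higher at day 10 than at day 0. Of the 23 genes with a value (17 measured on both arrays and 6 bounds), 14 were at least 2-fold higher, among them every measured chain of the leukocyte integrins, and 3 were at least 2-fold lower, led by Icam4. Over all 16431 genes with a value on the same arrays, 24.2% passed 2-fold upwards and 20.2% downwards, against 60.9% and 13.0% of the 23. The median difference of the 17 measured genes was 1.32 log2 units, and that of all measured genes was 0.19. Scaled on the spike-in controls, 20 of 21 genes of the set were at least 2-fold higher, near the 95% of all genes.

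The alpha chains Itgax and Itgam had the largest differences upwards. Itgax, the alpha chain of CD11c that marks dendritic cells and some macrophages, was at 2.53 in LSK cells at day 0, at 2.17 there at day 10, and at -0.96 and then 1.74 in CD45-negative cells. The CD45-negative day 0 array alone was low, and the day 10 array of that sort was 6.47-fold higher. Itgam, the CD11b chain of the myeloid integrin Mac-1, read -1.55, -0.66, -0.76 and 1.57 in the same order. Here the CD45-negative day 10 array alone was high, 5.0-fold above day 0, and a second Itgam probe gave a difference of 2.81 against 2.32.

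Itgal, the CD11a chain of LFA-1, by which lymphocytes bind ICAMs, was at 1.38 and then 1.52 in LSK cells, and at -0.66 and then 1.39 in CD45-negative cells. Again the CD45-negative day 0 array stood below the other 3, and the difference between days was 4.14-fold. Itgb2, the CD18 chain that all of these alpha chains need, read 1.65, 1.63, 1.37 and 3.25 and was 3.68-fold higher at day 10 in CD45-negative cells. Itgad, the CD11d chain of certain macrophages, was not well above background in CD45-negative cells at day 0 and was at least 1.54-fold higher at day 10. Itgam, Itgax and Itgad are neighbours on the RefSeq map, with no other protein-coding gene between each and the next.

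The ligands of these integrins did not move as one. Icam2, carried by resting endothelium, platelets and leukocytes, was at 3.77 and 3.91 in LSK cells and at 2.82 and 4.45 in CD45-negative cells, 3.09-fold higher at day 10. Of 12 endothelial markers, 9 and then 7 were above background in CD45-negative cells, at a summed level of 3.27 and then 2.11. Without Vwf, which is also on the platelet list, the sum went the other way, from 1.44 to 1.97. The median level of the 12 markers went from -2.38 to -3.07. Of the 7 measured on both arrays, 2 were at least 2-fold higher and 1 lower. The part of this list in the Icam2 difference was not tested. Icam1, the ligand induced by inflammation, was not well above background in CD45-negative cells at day 0 and was at least 1.26-fold higher at day 10. Icam4, the Landsteiner-Wiener antigen of red cells and their precursors, was at 0.17 and -0.65 in LSK cells and at 5.34 and 0.93 in CD45-negative cells. The day 0 array of the CD45-negative sort thus stood far above the other 3, and the day 10 level was 21.4-fold lower, a difference of -4.42. Icam4 lies between Icam1 and Icam5 on the RefSeq map, with no gene between them.

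Markers of several blood cell types moved with these genes. The T and NK cell list had a summed level, on the log2 scale, of 6.58 and 6.33 in LSK cells, with Nkg7 alone at 6.10 and 5.86. Of the 15 measured there, 4 were at least 2-fold lower at day 10 and 2 higher. In CD45-negative cells 9 of its 17 markers were above background at day 0 and 16 at day 10, and the sum was 3.26 and then 7.24. Cd3g, Cd8a, Cd4, Gzma, Gzmb, Klrd1, Ncr1 and Il2rb were not above background in that sort at day 0, and of these Cd4 alone was not at day 10. Plasma cell markers went from 6 to 8 of 8 and from 4.50 to 8.19, and B cell markers from 10 to 11 of 11 and from 9.19 to 9.76. Basophil and mast cell markers went from 6 to 8 of 10 and from 2.58 to 4.71, and all 6 measured were at least 2-fold higher. Monocyte and macrophage markers, with 9 of 12 at both days, were split. Their sum went from 7.28 to 7.69, with Lyz2 alone at 7.24 and then 7.64. Of the 9 measured, 2 were at least 2-fold higher and 2 lower. Neutrophil markers, 12 of 12 at both days, had a summed level of 10.3 and then 10.0, yet 8 of the 12 were at least 2-fold higher at day 10 and 1 lower, and their median level went from 4.64 to 6.11, the way of Itgam and Itgb2. The lower one was S100a9, which went from 9.15 to 7.67. The part of these lists in the integrin differences was not tested.

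Erythroid markers went the way of Icam4. All 10 were above background in CD45-negative cells at both days, and their summed level was 11.2 at day 0 and 8.26 at day 10, against 4.25 and 3.52 in LSK cells. Alas2, the first enzyme of red cell haem synthesis, read 9.04 and 3.53 in CD45-negative cells. The part of the erythroid list in the Icam4 difference was not tested.

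The alpha-4 and beta-7 group split in CD45-negative cells. Itgb7, whose chain pairs with alpha-4 or alpha-E on lymphocytes, was at 4.58 and 4.69 in LSK cells and at 1.65 and 3.86 in CD45-negative cells. The day 0 array of the second sort was again the low one, and day 10 was 4.61-fold higher. Itga4, the alpha chain of VLA-4 that holds progenitors to VCAM-1, read 4.25, 4.86, 6.07 and 5.18, highest in CD45-negative cells at day 0. Its difference between days in that sort was -0.90, short of 2-fold; other Itga4 probes gave -0.73 and -1.24.

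Itgb1, the common partner of most of these alpha chains, read 0.48, 0.25, 0.89 and 0.08 and differed by -0.80 in CD45-negative cells, while a second probe gave -1.97, the widest gap between probes of any gene of the set. Scaled on the spike-in controls, Itga4 and Itgb1 turned to 2.46 and 2.55. Itga9, an alpha chain that binds VCAM-1 and tenascin, read -1.97, -3.49, -2.08 and -0.98, and was 2.14-fold higher at day 10 in CD45-negative cells; its other probe gave 0.60. Itgae, the CD103 chain that binds E-cadherin, differed by 0.69 there, and by -0.36 with normexp background correction.

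Among the receptors for fibronectin and vitronectin, Itgav and Itga5 were not well above background in CD45-negative cells at day 0, and their bounds at day 10 were at least 2.41-fold (Itgav) and at least 2.13-fold (Itga5) higher. Itgb3, the platelet and osteoclast partner of alpha-V, read 2.30, 2.19, 1.01 and 2.02, a 2.02-fold difference between the CD45-negative arrays that sits on the threshold. Its second probe gave 0.34. Itgb3 also pairs with Itga2b, the platelet chain. The megakaryocyte and platelet markers went from 10 to 6 of 10 above background and from a summed level of 4.96 to 0.84. Itga2b, Gp1ba and Gp5 were among those not above background at day 10. The part of this list in the Itgb3 levels was not tested. Itgb5, a further alpha-V partner, was at -1.47 and -1.22.

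The laminin receptor chains Itga6 and Itgb4, which pair with each other in epithelia, both differed. Itga6, also a marker of many stem cell types, was at 0.25 and 0.01 in LSK cells and at -2.48 and -0.33 in CD45-negative cells, 4.44-fold higher at day 10. Itgb4 read -0.76, -0.29, -2.64 and -0.51 and was 4.37-fold higher; its second probe, which overlaps the first by 50 bases, gave 1.85. For both genes the day 0 CD45-negative array was the low one of the 4.

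The collagen receptor chains Itga10 and Itga11, known from cartilage and fibroblasts, were above background on the CD45-negative day 0 array alone, at -3.02 and -1.78. By day 10 Itga10 was lower by at least 2.33-fold and Itga11 by at least 3.99-fold; with the spike-in shift neither gave a value. Reticular and osteoblast markers went from 12 to 9 of 14 above background and from a summed level of 7.15 to 4.08. Of the 9 measured at both days, 6 were at least 2-fold lower. The 1 at least 2-fold higher was Alpl, at -0.61 and then 1.21. The part of this list in the Itga10 and Itga11 differences was not tested. Itga1 and Itga3 had no value on the brightest probe in this comparison, since it was dim at day 0 while another probe was not. Those other probes gave -1.15 for Itga1 and -0.78 for Itga3. The brightest Itga1 probe went the other way, from -3.59, not above background, to -2.82. The brightest Itga3 probe went from -3.02, not above background, to -3.59. Itga2 was above background on 1 array only, on its dimmer probe, at -4.02 in CD45-negative cells at day 10.

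The selectin ligand and the hyaluronan receptor were higher too. Selplg, the gene of the selectin ligand PSGL-1, was at 5.55 and 5.10 in LSK cells and at 3.46 and 4.78 in CD45-negative cells, 2.49-fold higher at day 10, and its second probe gave 2.33 against 1.32. Cd44 read 3.40, 3.46, 2.48 and 3.56, a 2.11-fold difference between the CD45-negative arrays, and a second probe gave 1.03. On the Cd44 probe printed above, both LSK arrays were above background, at -3.33 and -3.27, and neither CD45-negative array was. No fold was taken for that form between the sorts; at day 0 the detection limit of the CD45-negative array, -3.15, lies above both LSK levels, and at day 10 the probe read -3.98 in CD45-negative cells.

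By chain pair, 5 of the 23 had both chains at least 2-fold higher in CD45-negative cells at day 10: Itgal, Itgam and Itgax each with Itgb2, Itga6 with Itgb4, and Itgav with Itgb3, where Itgav is a bound. The second Itgb3 probe gave 0.34. Pairs with Itgb2 share that chain, so they are not separate results. No share of pairs over all genes was taken, and 24.2% of all single genes were at least 2-fold higher. In VLA-4, Itga4 with Itgb1, neither chain was higher. In Itga4 with Itgb7, and in Itga6, Itga9, Itga5 or Itgav with Itgb1, the first or the second chain was at least 2-fold higher and its partner was not. The same held for Itgae with Itgb7 and Itgav with Itgb5. In Itgad with Itgb2, the second chain was higher and the bound of Itgad did not reach 2-fold. Normexp background correction took the count of higher genes from 14 to 9 of 19, where 19.1% of all genes were higher. It gave Itga6 at 0.87, Itgb4 at 0.76 and Itga9 at 0.29. Of all genes past 2-fold, 54.6% were higher, a share that became 73.7% with a median shift and 99.1% with the spike-in shift.

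**Figure D2:**
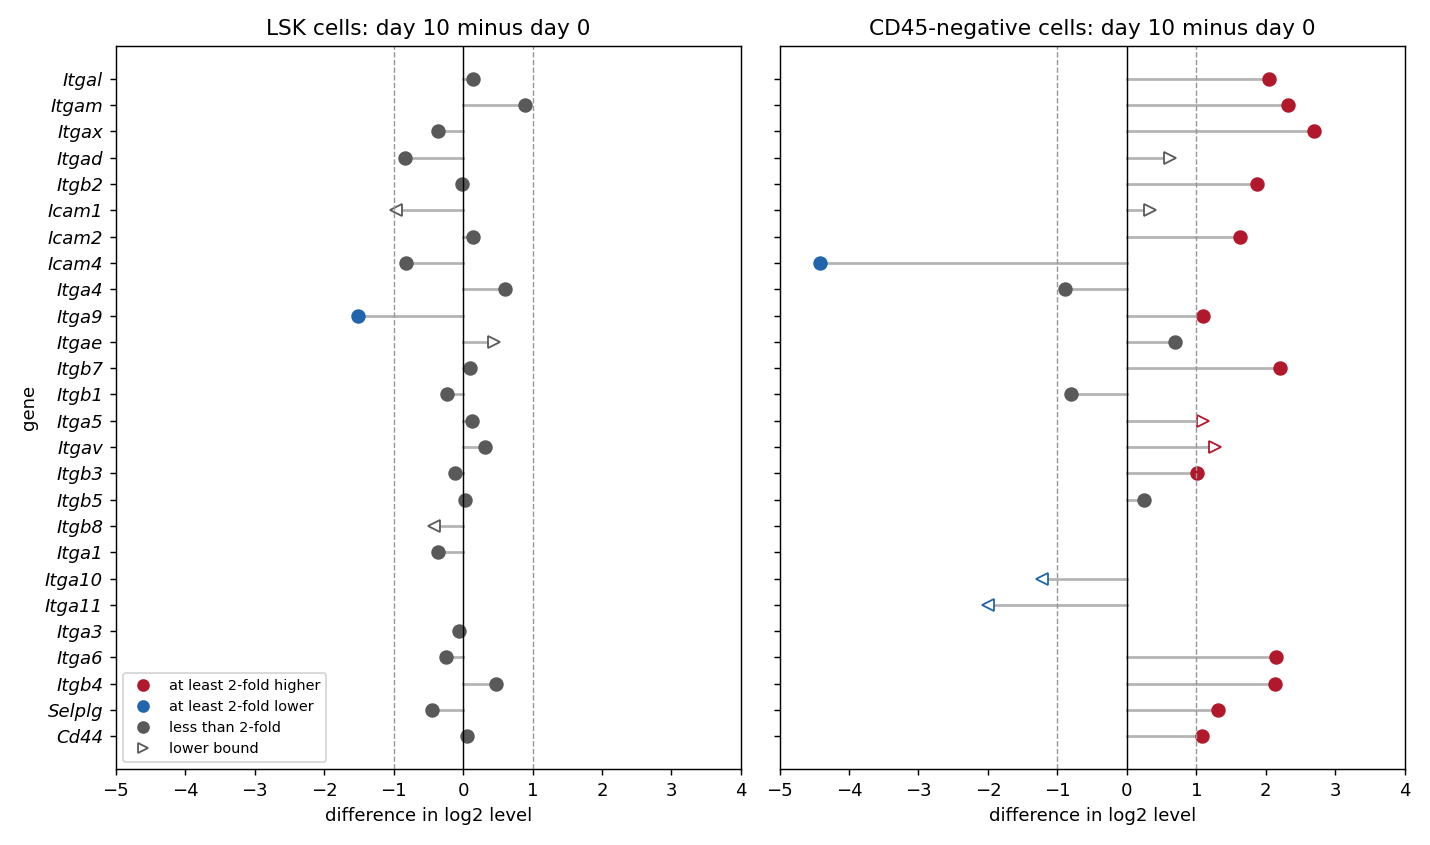
Difference in log2 level, day 10 minus day 0, of the genes with a value in LSK cells (left) or CD45-negative cells (right); dashed lines mark 2-fold, filled circles are measured differences and open triangles are lower bounds. In CD45-negative cells 14 genes lie at or beyond 2-fold higher and Icam4 lies at -4.42, whereas in LSK cells Itga9 alone lies beyond a dashed line, at -1.52.

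In LSK cells, 1 gene of the set was 2-fold apart between the 2 days. Of 24 genes with a value, none passed 2-fold upwards and Itga9 alone, 1 gene, passed it downwards, where 1.81% and 3.57% of all 17806 genes did. The share of the set past 2-fold, 0 and 4.17%, is near that background. The median difference was -0.02 over the 21 measured genes and -0.01 over all measured genes. Of all genes past 2-fold, 33.7% were higher, and 19.0% with the spike-in shift.

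Itga9 was 2.86-fold lower at day 10, -1.52 on the log2 scale; its second probe gave -0.88, and normexp background correction gave -0.65. Among the marker lists, the summed level of plasma cell markers went from 7.78 to 4.73 in LSK cells. Of these, 2 of 7 measured were at least 2-fold lower, with Jchain at 7.60 and then 2.96. The sum of basophil and mast cell markers went from 8.21 to 6.65, and that of megakaryocyte and platelet markers from 4.98 to 3.90. T and NK cell markers were split, with 4 of 15 measured at least 2-fold lower and 2 higher. Other lists went the other way. Neutrophil markers had 4 of 12 at least 2-fold higher and 0 lower, and monocyte and macrophage markers 2 of 9 measured higher and 0 lower. The part of these lists in the Itga9 difference was not tested. The leukocyte chains stayed within 2-fold: Itgam was 0.89 higher, Itgal 0.14 higher, Itgb2 differed by -0.02, Itgax by -0.36 and Itgad by -0.84. Of the homing receptors, Itga4 was 0.61 higher, and its other probes gave 1.04 and 1.01, each just past 2-fold. Itgb1 differed by -0.23 on its brightest probe and by 0.48 on the other, Itgb7 by 0.10, Selplg by -0.45 and Cd44 by 0.06.

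Among the remaining chains in LSK cells, Itgb4 was 0.47 and Itgav 0.31 higher, and Itga5, Itgb5, Itga3, Itgb3 and Itga6 lay between -0.24 and 0.13. Itga1 differed by -0.36 on its brightest probe and by -1.14 on another. Icam2 was 0.14 higher and Icam4 differed by -0.82. With the spike-in shift Itgal, Itga5, Itgb5, Itgb7, Icam2 and Cd44 turned to between -0.14 and -0.02. Genes near the detection limit gave bounds below 2-fold: Itgae was higher by at least 1.36-fold, Itgb8 lower by at least 1.34-fold and Icam1 lower by at least 1.95-fold. Itgb8, the alpha-V partner that activates TGF-beta, was above background on the LSK day 0 array alone, at -3.70.

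**Figure D3:**
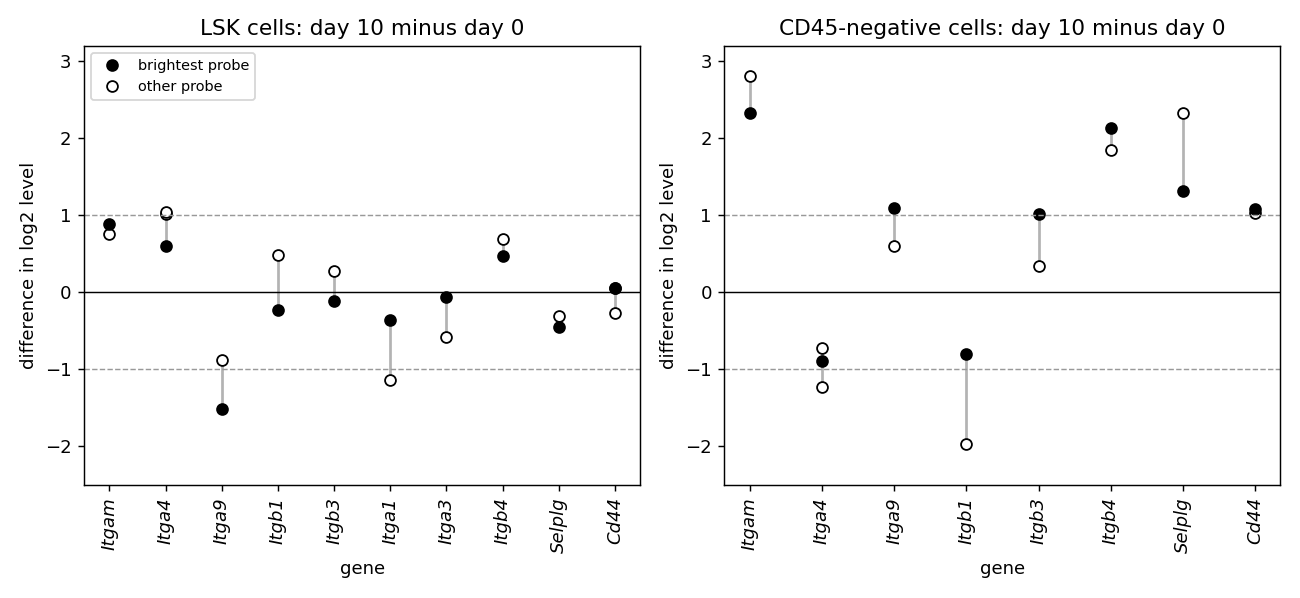
Difference in log2 level, day 10 minus day 0, for each probe of the genes with at least 2 measured probes, in LSK cells (left) and CD45-negative cells (right); filled circles are the brightest probe of a gene, open circles its other probes, dashed lines 2-fold. In CD45-negative cells the probes of all 8 genes lie on the same side of 0, with a median gap of 0.50 and the widest, 1.17, for Itgb1; in LSK cells the probes of 7 of 10 genes do.

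At day 0, the larger differences between the sorts were mostly towards LSK cells. Of 22 genes with a value (16 measured and 6 bounds), 10 were at least 2-fold higher in LSK cells and 3 at least 2-fold lower, against 23% and 18.9% of all 16846 genes. The median was 1.12 over the 16 measured genes and 0.08 over all measured genes. This comparison and that of days in CD45-negative cells share the CD45-negative day 0 array, so the 2 are not independent. Of all genes past 2-fold, 54.8% were higher in LSK cells, and 94.9% with the spike-in shift.

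Among genes with a value, those higher in LSK cells at day 0 held no collagen receptor chain and no ICAM. The collagen chains Itga1 and Itga2, and Icam1, had no value here. The brightest Itga1 probe read -0.88 in LSK cells and -3.59, not above background, in CD45-negative cells. Another Itga1 probe differed by 0.91. Itgax was 11.2-fold, Itgb5 8.24-fold, Itgb7 7.61-fold and Itga6 6.65-fold higher. Selplg followed at 4.25-fold, Itgal at 4.10-fold, Itgb4 at 3.68-fold and Itgb3 at 2.44-fold, where the second Itgb3 probe gave 0.42 on the log2 scale. Itgav and Itga5 were at least 4.12-fold and at least 3.92-fold higher. Icam2 and Cd44, at 0.95 and 0.92, fell short of 2-fold.

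Lower in LSK cells at day 0 were Icam4 (36.1-fold), Itga4 (3.54-fold) and Itga11 (at least 4.50-fold). With the spike-in shift Itga4 stood at -0.08. Itgb2, Itga9, Itgb1 and Itgam lay between -0.79 and 0.28, and the second Itgam probe gave 0.74 against -0.79. The bounds of Itgad (at least 1.54-fold higher), Itgae (at least 1.96-fold lower) and Itga10 (at least 1.91-fold lower) did not reach 2-fold.

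At day 10 the larger differences between the sorts went both ways. Of 23 genes with a value, 5 were at least 2-fold higher in LSK cells and 6 at least 2-fold lower, against 12.9% and 12.8% of all 18008 genes. The median was 0.16 over 22 measured genes and 0.01 over all. Of all genes past 2-fold, 50.03% were higher in LSK cells, 21.3% with a median shift and 1.07% with the spike-in shift.

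Itgb5 was 7.07-fold higher in LSK cells at day 10, the largest difference of the set in this direction. Its levels were 1.58 and 1.60 in LSK cells and -1.47 and -1.22 in CD45-negative cells. Itga1 (2.99-fold), Itgav (2.12-fold), Itga3 (2.10-fold) and Itga5 (2.01-fold) were also higher in LSK cells, and all 4 turned negative with the spike-in shift. The second probes gave 0.92 for Itga1 and 0.27 for Itga3.

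Lower in LSK cells at day 10 were Itga9 (5.70-fold), Itgam (4.68-fold), Itgb2 (3.08-fold), Icam4 (2.99-fold), Itgae (2.32-fold) and Icam1 (at least 2.47-fold). Genes that had been at least 2-fold higher in LSK cells at day 0 now lay within 2-fold: Itgb7 at 0.83, Itgax at 0.43, Itga6 at 0.34, Selplg at 0.32, Itgb4 at 0.22, Itgb3 at 0.16 and Itgal at 0.13. All of these lay below 0 with the spike-in shift, and all but Itgb7 and Itgax with the median shift. Itgb1 was at 0.16 on its brightest probe and at 2.10 on the other. The Selplg probes differed in sign, 0.32 and -0.87. The remaining genes, Cd44, Itga4, Icam2 and Itgad, lay between -0.84 and -0.10, while other Itga4 probes gave 0.56 and 0.73.

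**Figure D4:**
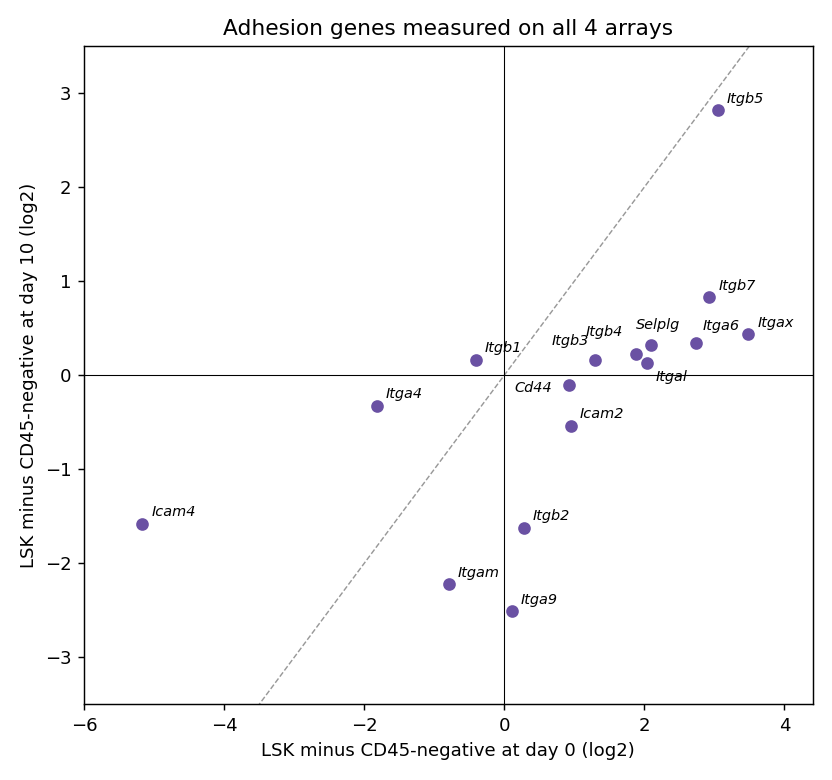
LSK minus CD45-negative difference in log2 level at day 0 (horizontal) and day 10 (vertical) for the 16 genes measured on all 4 arrays; the dashed line marks equal differences. Itgb5 lies near that line at 3.04 and 2.82, Itgax, Itgb7 and Itga6 lie far to the right but at 0.83 or less on the vertical axis, and Icam4 is lower in LSK cells at both days, at -5.17 and -1.58.

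The genes that act with these receptors were read from 4 lists. Of 38 genes of integrin activation and its adapters, 32 had a value between the CD45-negative arrays, 15 of them at least 2-fold higher and 7 lower, where 24.2% and 20.2% of all genes were, with a median of 0.68 over those measured. Higher were Dock2 (3.11), which drives leukocyte migration, Rassf5 (2.28), the Rap1 effector that activates LFA-1, and Tns3 (2.19), while Skap1, a T cell adapter of LFA-1, was at least 42.0-fold higher. Lower were the tetraspanin Cd82 (-2.36), Parvb (-2.27) and Cd47 (-1.79). In LSK cells, where 1.81% of all genes were higher and 3.57% lower, 36 had a value, with 1 higher and 1 lower: Dock2 at 1.07 and Actn1, an actin crosslinker, at -1.05. The next there were Parvb (0.69), Rassf5 (0.63), Tns1 (-0.86) and Skap1 (-0.64).

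Of 30 integrin ligands outside the set, 16 had a value in CD45-negative cells, 4 at least 2-fold higher and 7 lower, with a median of -0.07; the higher share is near the 24.2% of all genes, and 20.2% of all genes were lower. Vwf, the platelet-binding protein of endothelium and megakaryocytes, differed by -4.10, Icam5 by -3.44 and Vcam1, the ligand of VLA-4, by -2.38. The laminin chain Lamc1 (1.57), Thbs1 (1.40) and Mfge8 (1.24) were higher. In LSK cells 17 had a value, 1 higher and 3 lower, where 1.81% of all genes were higher and 3.57% lower. Thbs1 was at least 3.01-fold higher. Lower were Cdh1 (the E-cadherin gene) at -1.72, Lama5 at -1.44 and Spp1, the osteopontin gene, at -1.03. Fn1 (0.77), Lamb2 (0.34) and Egfl7 (0.18) stayed within 2-fold.

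Of 23 selectins, selectin carriers and enzymes that build their sugars, 18 had a value in CD45-negative cells, 3 higher and 5 lower, near the 24.2% and 20.2% of all genes, with a median of -0.02. Spn (1.30) was among the higher, Tpst1, at 0.83, stayed within 2-fold, and Gcnt1, which starts the core branch of selectin ligands (-3.05), Galnt1 (-1.96) and Cd24a (-1.67) were lower. In LSK cells 1 of 20 passed 2-fold, where 1.81% of all genes were higher and 3.57% lower: Selp, the P-selectin gene, at 2.15. St3gal3 (0.83), Chst4 (0.54), Emcn (-0.72), Fut4 (-0.62) and B4galt1 (-0.31) did not.

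Of 15 partners of CD44, 9 had a value in each sort. In CD45-negative cells 4 were higher and 2 lower, against 24.2% and 20.2% of all genes: the protease gene Mmp9 (2.46), Msn, the moesin gene that ties CD44 to actin (2.44), and Cd74 (1.35) were among the higher, Hyal2 was at -1.61 and Hyal1 was at least 6.27-fold lower. In LSK cells 3 were higher and none lower, against 1.81% and 3.57% of all genes. The higher ones were Msn (1.09), Cd74 (1.0, on the threshold) and Hapln1 (at least 3.19-fold, a bound). Rdx (-0.57), Mmp14 (-0.53) and Hyal2 (-0.50) were the lowest. The medians were 0.92 in CD45-negative cells and -0.40 in LSK cells.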

How the data were processed

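Per the labels, 500 ng of RNA a sample was labelled with Cy3. Spots were quantified by the authors in Agilent Feature Extraction (version 10.5.1.1), and the spot signal is a background-subtracted intensity per the file headers; the array design was built on mm9. The deposited flags for detection, saturation and outliers (unit: other) were used as given. The deposited series table holds log2 values that equal the log2 intensity minus 1 constant for at least 99.9% of probes within 0.001. Control and outlier spots were removed, log2 signals averaged per probe, and the 75th percentile of each array subtracted. Of 61307 probes, 20679 for noncoding transcripts were kept apart; RefSeq accessions matched 28136 of the other 40628. The members and lists were chosen with earlier results of these data known. Named genes are the 32 members, with levels on every array for those measured at least 2-fold apart between days, and per partner list the 3 largest measured differences each way; bounds and further members were added after their values were seen. Alternatives were normexp (limma 3.58.1, R 4.3.3; offset 50), quantile, median and spike-in scaling, no detection filter, the mean of probes, the deposited table, 3-fold and measured folds only. Python 3.11.15 with pandas 2.3.3 ran the rest, and the scripts were tested on simulated data. Promoters and gene order come from RefSeq (GRCm38.p6). A few genes of the marker and partner lists are counted but not reported by name here.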

Additional observations from a re-analysis of the deposited data

Results flagged for a closer look

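Itga9 differed in opposite directions between the days in the 2 sorts. It was lower at day 10 in LSK cells, -1.52, and higher in CD45-negative cells, 1.1. The second Itga9 probe went the same ways at a smaller size, -0.88 and 0.60. With 1 array a group the difference between the sorts was not tested.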

How the results depend on the processing

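No paired analysis was possible because each group has 1 array. Between days in LSK cells, the 1 lower gene became 0 with normexp or a 3-fold threshold. The count became 3 with the spike-in shift and 7 without a detection filter, which also gave 1 higher in place of 0. Of all genes, 1.07% were lower with normexp, 1.31% at 3-fold, 5% with the spike-in shift and 6.67% without a filter. Without a filter 4.96% of all genes were higher. Between days in CD45-negative cells, the 14 higher became 9 of 19 with normexp and 8 of 23 at 3-fold. Of all genes, 19.1% and 10.4% were higher in these settings. With the spike-in shift 20 of 21 were higher, near the 95% of all genes, so no excess over all genes was seen there. The 3 lower became 1 with the spike-in shift or measured folds only, 5 with the mean of probes and 6 without a filter. Of all genes, 0.871%, 17.8%, 20.4% and 37.1% were lower in these settings. At day 0, with 10 higher and 3 lower in LSK cells, the spike-in shift gave 18 and 1 of 22. Of all genes, 78.7% were higher and 4.2% lower with that shift. No filter gave 6 lower of 32, where 19.4% of all genes were lower. At day 10, the 5 higher became 1 with normexp, the spike-in shift or 3-fold and 2 with quantile or median scaling. Of all genes, 6.06%, 0.9% and 4.81% were higher with normexp, the spike-in shift and 3-fold, and 10.2% and 6.55% with quantile and median scaling. The 6 lower became 17 of 23 with the spike-in shift, where 83.4% of all genes were lower. At 3-fold 3 were lower, where 5.72% of all genes were. There the spike-in shift reversed Itga1 (-0.20), Itga3 (-0.71), Itga5 (-0.77) and Itgav (-0.70). That shift rests on 5 control probes and moved the median of all genes by 3.36 between days in CD45-negative cells, -0.17 in LSK cells, 1.74 between sorts at day 0 and -1.78 at day 10; the median shift moved it by 0.46 in CD45-negative cells and -0.41 at day 10. Icam4 remained lower in CD45-negative cells with the spike-in shift, at -1.06. The cause of the other changes was not tested. Signal over background limits the dimmest chains, most of all on the CD45-negative day 0 array.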
